A study of Mus musculus with 9 samples.

Results

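Whole-kidney messenger RNA of mice whose podocytes carry the secretion-deficient Ybx1 mutant K2A was compared with that of wild-type (WT) mice, gene by gene. The members were the 6 libraries named as K2A 1, K2A 2, K2A 3 and WT 1, WT 2, WT 3 in the labels, out of 9 in the series, and every gene of their count table. The K2A allele replaces both lysines that acetylation-dependent secretion of the protein needs (K299A and K302A, in exon 7), and the labels place it specifically in podocytes. The labels do not name a Cre driver or other alleles. WT animals came from a commercial supplier and carried no listed allele, and the labels give no supplier for the mutants. The third group of the series, dPod, has Ybx1 deleted from podocytes. It entered the shared filter, scaling and estimate of the spread and a direct comparison with K2A. Some of its contrasts with WT are set beside those of K2A. All groups are on a C57Bl/6N background and were sampled at 16 weeks of age, with no treatment listed, and their sex is not given. Each group holds 3 libraries. The labels do not say that these came from separate animals, so p-values measure the spread between these samples, which may be partly technical.

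Ybx1 encodes Y-box binding protein 1, a cold shock protein that binds RNA and single-stranded DNA, packages messenger RNA in the cytoplasm and can enter the nucleus. Cells can also release it without a signal peptide after lysine acetylation, and extracellular Ybx1 is known as a signal to neighbouring cells. Podocytes wrap the glomerular capillaries and sit upstream of the tubule, and they are a small part of the kidney's cells. Proximal tubule cells hold most of its RNA. They reabsorb solutes from the filtrate, secrete organic ions, and carry out much of the kidney's drug, steroid and amino acid metabolism. In bulk tissue, fewer cells of a type and less RNA per cell cannot be told apart.

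The libraries held 30777142 to 41213834 counts. At that depth 3 counts in a group correspond to 0.0269 CPM in WT and 0.0280 CPM in K2A, where CPM stands for counts relative to the TMM-scaled library size, in the usual per-1000000 unit. Several measures set libraries apart before any gene was tested. Sex-linked transcripts separated the groups completely. The Y-linked genes Ddx3y, Eif2s3y, Kdm5d and Uty summed to 3404, 4148 and 4133 counts in WT and to 22, 8 and 0 counts in K2A, and Xist, which silences an X chromosome in female cells, was measured at 0, 0 and 0 CPM in WT and 30.9, 30.6 and 331 CPM in K2A. Genotype and sex therefore cannot be told apart in any comparison with WT below. White and brown adipocyte markers summed to 289.7, 254 and 274 CPM in WT and to 680.2, 1631 and 363 CPM in K2A. Urothelium markers summed to 138, 128 and 125 CPM and 240.4, 252 and 123 CPM, so both lists were high in K2A 1 and K2A 2. Libraries also differed in whether counts rose or fell with transcript length, relative to the mean of all libraries: longer transcripts were higher in WT 1, WT 3 and K2A 3 (the long class), shorter ones in WT 2, K2A 1 and K2A 2 (the short class). Ribosomal protein genes, which are short, took 1.18, 2.45 and 1.1% of counts in WT and 3.86, 3.93 and 1.0% in K2A. Mitochondrially encoded genes took 3.96, 1.49 and 3.56% of counts in WT and 7.31, 7.05 and 8.81% in K2A. Proximal tubule markers, 22 genes, summed to 67309.8, 72501 and 67821 CPM in WT and 34317, 37446 and 50789 CPM in K2A. Every K2A library lay below every WT library, K2A 3 the least. The marker Pck1 was far higher in K2A 3 than in any other of these libraries, as given below. Its part in the K2A 3 sum was not tested. The proximal tubule markers that passed the test below, Slc7a13, Acsm2 and Cyp2e1, are also on the list of male-biased genes. Other markers in the sum may differ between the sexes too. The part of all such genes in the sum was not tested. Of the markers, 4 of 8 Y-linked genes, 6 of 11 adrenal, 3 of 12 liver and pancreas and 1 of 8 skeletal muscle genes had no count in the 6 libraries.

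**Figure D1:**
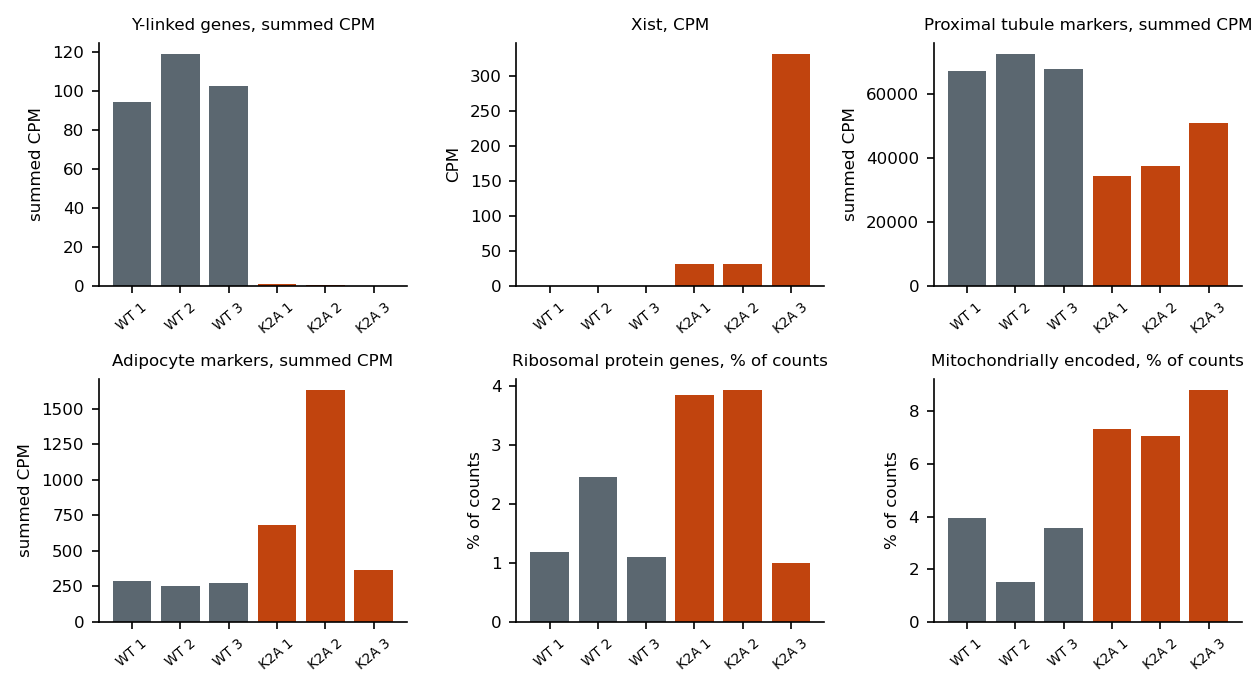
Bars give 1 library each, 3 WT (grey) and 3 K2A (orange): summed CPM of Y-linked genes, CPM of Xist, summed CPM of proximal tubule and adipocyte markers, and the percent of counts from ribosomal protein and mitochondrially encoded genes. Y-linked genes and Xist separate the groups, adipocyte markers reach 1631 CPM in K2A 2, and ribosomal protein genes are high in K2A 1 and K2A 2 but not in K2A 3.

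Ybx1 itself (chromosome 4, 119277981 to 119294604, mm10) was measured at 1189.7, 1585 and 1185 CPM in WT and 1078, 1152 and 554 CPM in K2A. Each K2A library lay below the lowest WT library, and K2A 3 was the lowest, but the difference did not pass the test (log2 fold change -0.51, SE 0.38, adjusted p = 0.725; edgeR quasi-likelihood test with Benjamini-Hochberg adjustment, as for every adjusted p below). A change of codons leaves the transcript in place, and most kidney cells transcribe Ybx1, so the counts do not check the K2A allele. Pseudogene copies of Ybx1 could also share its reads. When the length slope entered the fit, the log2 fold change of Ybx1 was -0.84 and passed (adjusted p = 0.00159), as did 1516 lower genes in all of 18067 tested. Of the 9 tested cold-shock genes and partners of Ybx1 none passed, with a median log2 fold change of -0.13. Its paralog Ybx2, best known from germ cells, was at 10.2, 9.73 and 8.95 CPM in WT and 12.4, 13.4 and 12.7 CPM in K2A (log2 fold change 0.41, SE 0.29, adjusted p = 0.706).

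Podocyte transcripts were measured in every library, and none of the 22 podocyte markers passed (median log2 fold change -0.06). Nphs1, which encodes nephrin of the slit diaphragm, ran with the length class: it was at 23.3, 8.07 and 26.5 CPM in WT and 9.73, 8.33 and 40.9 CPM in K2A, low in WT 2, K2A 1 and K2A 2 and high in the other libraries (log2 fold change 0.03, SE 1.01, adjusted p = 0.994). The transcription factor gene Wt1 had the same order, at 11.1, 4.78 and 11 CPM in WT and 4.71, 4.59 and 18.5 CPM in K2A (log2 fold change 0.05, SE 0.88, adjusted p = 0.986). The groups overlapped in both genes. With the length slope in the fit, both passed, Nphs1 at 0.70 (adjusted p = 0.0404) and Wt1 at 0.58 (adjusted p = 0.0468), the only 2 of the 22 markers to do so. Among all 18067 tested genes, that fit called 1348 higher and 1516 lower.

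Across all genes, 153 of 18067 tested (0.847%) passed the test at a false discovery rate of 0.05, 58 higher in K2A (0.321%) and 95 lower (0.526%). Without adjustment 1919 genes had p below 0.05. In all 153 the 3 WT and 3 K2A libraries did not overlap, as in 20.1% of all tested genes (11% higher, 9.18% lower). Over all tested genes the median change was a log2 value of 0.09. Called genes lay on autosomes in 142 cases, on chromosome Y in 4 and on X in 2, and 5 had no unique position. In 125 cases they were protein-coding, and 29 were predicted genes or pseudogenes. The number of calls rested on single libraries: 3 genes stayed called whichever of the 6 libraries was left out, namely Cyp2j13, Apoh and Cyp7b1. Of the 153, 3 stayed called without WT 1, 23 without WT 2, 5 without WT 3, 13 without K2A 1, 12 without K2A 2 and 112 without K2A 3. Leaving out K2A 1 and K2A 2 together, the libraries with high adipocyte and urothelium markers, left 5 of them called. That fit has a single K2A library, assumed to vary as the replicated groups did. Their median absolute log2 fold change was 3.03 in it against 3.05 with all libraries. All 153 kept their sign in that fit, within the long class (K2A 3 against WT 1 and WT 3) and within the short class (K2A 1 and K2A 2 against WT 2). As the groups did not overlap in these genes, any subset of the libraries gives the same sign, so this adds nothing to the calls. Calls within a class rest on a lone library on 1 side, assumed to vary as the replicated ones did.

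**Figure D2:**
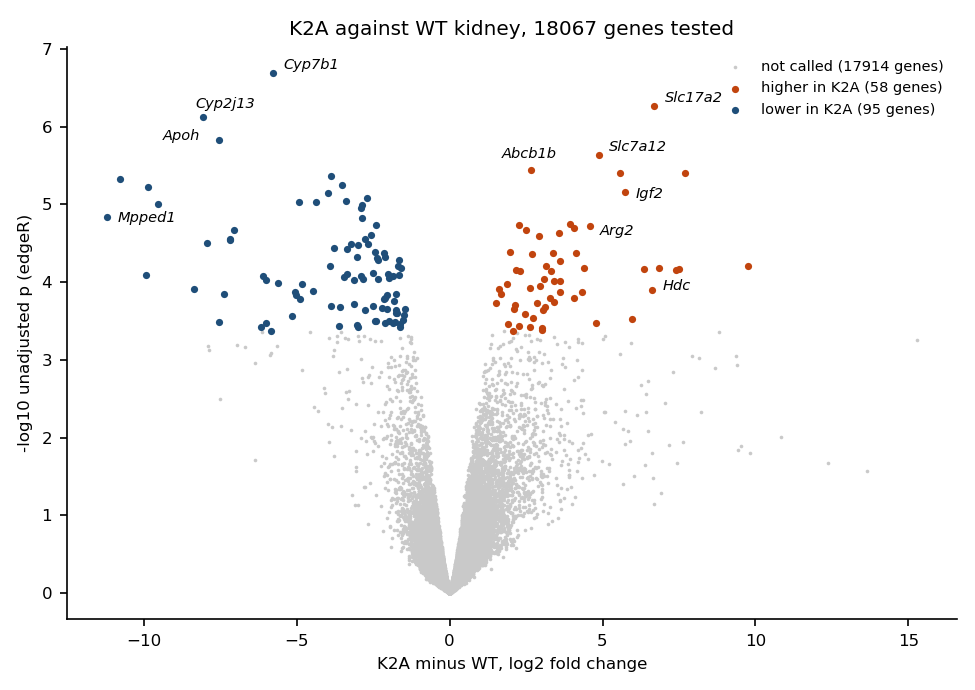
Each point is 1 of 18067 tested genes, with the log2 fold change of K2A over WT on the x axis and -log10 of the unadjusted edgeR p on the y axis. The 58 genes called higher (orange) and 95 called lower (blue) include Slc17a2 and Slc7a12 on the right and Cyp7b1, Cyp2j13 and Apoh on the left.

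**Figure D3:**
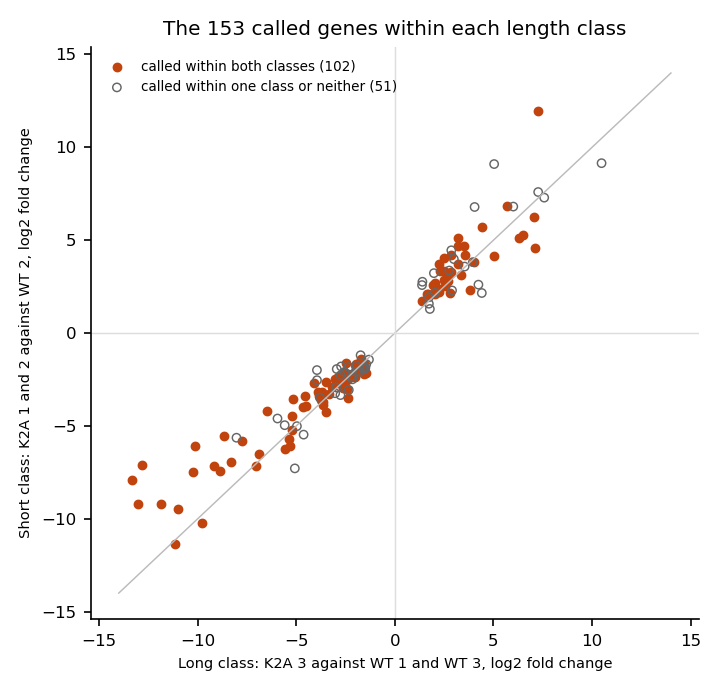
The 153 called genes are plotted by their log2 fold change within the long class (x axis) and within the short class (y axis), and the line marks equal values. All lie in the lower left or upper right part of the plot, as the lack of overlap between the groups fixes. Filled points are those called within both classes.

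Membrane transporters held some of the largest differences in both directions. Among amino acid transporters 1 of 28 rose and 1 fell, against 0.847% of all genes called, and their median log2 fold change was -0.34. Slc7a13, an acidic amino acid and cystine carrier of the late proximal tubule (chromosome 4, 19818725 to 19842218), was at 1116, 1092 and 996 CPM in WT and 7.44, 4.68 and 0.871 CPM in K2A (log2 fold change -7.95, SE 1.0, adjusted p = 0.0151). Its relative Slc7a12 (chromosome 3, 14480697 to 14505830) was at 4.38, 2.69 and 6.38 CPM in WT and 148, 131 and 114 CPM in K2A (log2 fold change 4.87, SE 0.44, adjusted p = 0.00836). The K2A libraries were thus all low in Slc7a13 and all high in Slc7a12, with no overlap. Of 34 organic anion and cation transporters 2 rose and 2 fell (median -0.45). Within the Slc22 organic anion family, Slc22a29 was at 3.02, 3.12 and 2.82 CPM in WT and 53.6, 61.5 and 20.8 CPM in K2A (log2 fold change 3.92, SE 0.46, adjusted p = 0.0128). In the other direction, Slc22a30, which lies on the same chromosome, was at 115, 181 and 133 CPM in WT and 13.1, 10.6 and 5.42 CPM in K2A (log2 fold change -3.88, SE 0.63, adjusted p = 0.0325). Slc22a22, a prostaglandin transporter, was at 118, 125 and 121 CPM in WT and 41.1, 39.2 and 21.5 CPM in K2A (log2 fold change -1.84, SE 0.32, adjusted p = 0.0434). K2A 3 was the lowest library in both genes that fell. It was also the lowest of the K2A libraries in Slc22a29, and reads of such close relatives may be shared between them.

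Abcb1b encodes a P-glycoprotein, the drug efflux pump of the apical membrane (chromosome 5, 8798147 to 8866315). It was at 4.74, 3.61 and 4.3 CPM in WT and 23.5, 26.6 and 29.4 CPM in K2A, 6.29-fold higher in K2A (log2 fold change 2.65, SE 0.25, adjusted p = 0.00853). The 6 values formed 2 narrow groups with no overlap. Of 20 glucose and phosphate transporters 1 rose (median -0.27), Slc17a2, of the sodium-phosphate and organic anion carrier family (chromosome 13, 23806993 to 23825180). It was close to absent from WT, at 0.166, 0.229 and 0.124 CPM, and at 20.6, 14.1 and 19.9 CPM in K2A (log2 fold change 6.7, SE 0.51, adjusted p = 0.00447). The phosphate carrier Slc34a1 was at 8724, 4091 and 8657 CPM in WT and 1149.8, 1291 and 2459 CPM in K2A and did not pass (log2 fold change -2.13, SE 0.83, adjusted p = 0.381). Its WT 2 value lay well below WT 1 and WT 3.

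The promoters of some of these genes are shown because Ybx1 is named for the Y-box, an inverted CCAAT element, for which the P-glycoprotein gene is a textbook case, and because Cbr1 and Setd4, described below, are neighbours that moved together. Each sequence is the 250 bases before the annotated start (RefSeq, GRCm38.p6), 5′ to 3′ on the gene's strand, with CCAAT on either strand (printed as ATTGG on the other) or TTCNNNGAA, the spaced palindrome of STAT5-type factors, in capitals. Abcb1b (chr5:8797897-8798146, plus strand) holds both orientations of CCAAT, Setd4 (chr16:93603816-93604065, minus strand) holds 1 CCAAT, Slc17a2 (chr13:23806743-23806992, plus strand) holds 1 TTCNNNGAA, and Cbr1 (chr16:93607587-93607836, plus strand) holds neither. The RefSeq start of Cbr1 lies inside the GENCODE gene body given below.
Abcb1b: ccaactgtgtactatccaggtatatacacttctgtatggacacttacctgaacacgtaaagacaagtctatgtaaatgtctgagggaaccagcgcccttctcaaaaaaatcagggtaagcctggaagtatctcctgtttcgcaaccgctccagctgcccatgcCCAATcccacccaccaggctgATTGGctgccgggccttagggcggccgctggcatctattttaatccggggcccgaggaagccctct
Slc17a2: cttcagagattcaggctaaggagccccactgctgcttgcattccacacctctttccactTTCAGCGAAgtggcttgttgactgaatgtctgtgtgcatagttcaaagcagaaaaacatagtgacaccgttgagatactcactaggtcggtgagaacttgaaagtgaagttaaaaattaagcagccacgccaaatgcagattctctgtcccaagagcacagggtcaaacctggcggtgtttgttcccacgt
Cbr1: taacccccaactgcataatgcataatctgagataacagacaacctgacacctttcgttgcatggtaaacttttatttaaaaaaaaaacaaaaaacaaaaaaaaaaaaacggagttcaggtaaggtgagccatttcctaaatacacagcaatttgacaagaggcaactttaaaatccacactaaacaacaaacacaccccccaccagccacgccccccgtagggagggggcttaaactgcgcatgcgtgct
Setd4: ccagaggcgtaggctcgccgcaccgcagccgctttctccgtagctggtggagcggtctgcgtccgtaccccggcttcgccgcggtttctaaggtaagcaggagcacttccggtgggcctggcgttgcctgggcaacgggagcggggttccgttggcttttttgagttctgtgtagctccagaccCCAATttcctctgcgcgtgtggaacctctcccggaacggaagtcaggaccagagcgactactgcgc
Among all 32851 RefSeq promoters 33.8% held CCAAT on either strand. Of 41 promoters from 33 genes that rose 31.7% did, and of 79 promoters from 70 genes that fell 34.2% did. TTCNNNGAA stood in 7.02% of all promoters, in 14.6% of those of genes that rose (6 of 41) and in 6.33% of those of genes that fell (5 of 79). These are matches of letters in a fixed window and not measured sites.

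Cytochrome P450 genes that passed were all lower in K2A. Outside family 4, 4 of 30 fell and none rose (median -0.10). Cyp7b1, which hydroxylates oxysterols and some steroids (chromosome 3, 18071950 to 18243338), was at 237, 219 and 187 CPM in WT and 3.56, 2.96 and 5.32 CPM in K2A, 54.2-fold lower in K2A (log2 fold change -5.76, SE 0.39, adjusted p = 0.00369). Cyp2j13, of the arachidonic acid epoxygenase family (chromosome 4, 96027534 to 96077546), was at 462, 319 and 487 CPM in WT and 2.88, 0.889 and 1.02 CPM in K2A (log2 fold change -8.05, SE 0.63, adjusted p = 0.00447). No library of the other group came near in either gene. Cyp2e1, which oxidises ethanol and small solvents (chromosome 7, 140763739 to 140774987), was at 1861, 1403 and 1720.3 CPM in WT and 77.8, 114 and 143 CPM in K2A (log2 fold change -3.9, SE 0.54, adjusted p = 0.0195). Cyp2j5, an epoxygenase of the proximal tubule, was at 1886, 1728 and 1837 CPM in WT and 515, 569.7 and 682 CPM in K2A (log2 fold change -1.63, SE 0.28, adjusted p = 0.0443), a smaller difference with K2A 3 nearest to WT. Among 13 Cyp4 fatty acid hydroxylases 1 fell, Cyp4a12a, which hydroxylates arachidonic acid in mouse kidney. It was at 114, 80.4 and 189 CPM in WT and 1.49, 0.622 and 3.24 CPM in K2A (log2 fold change -6.16, SE 1.09, adjusted p = 0.046). Over all 13 the median was 0.39.

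Conjugating enzymes moved in both directions. Of 41 genes of glutathione, glucuronide and sulfate conjugation 2 rose and 3 fell (median 0.73). Ugt1a2, a UDP-glucuronosyltransferase that shares its last exons with the other Ugt1a genes, was at 77.7, 58.4 and 72.7 CPM in WT and 493, 620.3 and 471 CPM in K2A (log2 fold change 2.92, SE 0.36, adjusted p = 0.014). Gsta2, an alpha-class glutathione transferase and NRF2 target, was at 96.7, 86.3 and 80.5 CPM in WT and 344, 409 and 284 CPM in K2A (log2 fold change 1.98, SE 0.26, adjusted p = 0.0165). Of 23 NRF2 targets only Gsta2 passed. Gsta5, which is on neither list, stood at 3.74, 3.24 and 2.99 CPM in WT and 38.7, 48 and 16.1 CPM in K2A (log2 fold change 3.37, SE 0.44, adjusted p = 0.0165). All K2A libraries were high in these 3 genes, and the alpha-class transferases are similar enough for reads to be shared. The glucuronosyltransferase genes Ugt2b38, Ugt2b37 and Ugt2a3 lie in a cluster on chromosome 5 and all fell. Ugt2b38 was at 966, 1217 and 1061 CPM in WT and 125, 104 and 42.4 CPM in K2A (log2 fold change -3.57, SE 0.58, adjusted p = 0.0326). Ugt2b37 was at 67.9, 146 and 99.9 CPM in WT and 3.41, 1.69 and 0.387 CPM in K2A (log2 fold change -5.84, SE 1.05, adjusted p = 0.050), just under the threshold. Low counts marked Ugt2a3, at 1.94, 1.52 and 2.64 CPM in WT and 0.341, 0.415 and 0.145 CPM in K2A (log2 fold change -2.76, SE 0.46, adjusted p = 0.0338). In Ugt2b37 and Ugt2b38, WT 2 was the highest and K2A 3 the lowest library.

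Oxidation and reduction of carbonyl groups gave a strong rise of Cbr1 beside several falls. Of 42 genes of carbonyl, aldehyde and alcohol metabolism 1 rose and 3 fell (median -0.38). Cbr1, a carbonyl reductase that uses NADPH (chromosome 16, 93605853 to 93610505), was at 44.3, 61.6 and 38.8 CPM in WT and 842, 908 and 671 CPM in K2A, 16.7-fold higher (log2 fold change 4.06, SE 0.48, adjusted p = 0.0131). Setd4, a lysine methyltransferase gene on the opposite strand, was at 0.499, 0.859 and 0.815 CPM in WT and 6.69, 7.53 and 4.28 CPM in K2A (log2 fold change 3.08, SE 0.45, adjusted p = 0.0205). K2A 3 was the lowest K2A library in both neighbours and still far above WT. Adh1, the class I alcohol dehydrogenase, was at 767, 813 and 833 CPM in WT and 124, 136 and 71.9 CPM in K2A (log2 fold change -2.86, SE 0.31, adjusted p = 0.00918). Rdh10, which oxidises retinol on the way to retinoic acid, was at 126, 109.7 and 125 CPM in WT and 40.6, 41.6 and 38.3 CPM in K2A (log2 fold change -1.58, SE 0.22, adjusted p = 0.0195). Hsd17b11, a dehydrogenase of steroids and lipid droplets, was at 409.7, 459 and 441 CPM in WT and 101, 105 and 154 CPM in K2A (log2 fold change -1.86, SE 0.27, adjusted p = 0.0202). These 3 genes had tight WT values, and no K2A library overlapped them. Fmo5, a flavin-containing monooxygenase named here after its values were seen, was at 197, 125 and 193 CPM in WT and 11.1, 9.37 and 14.4 CPM in K2A (log2 fold change -3.88, SE 0.38, adjusted p = 0.00853).

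Steroid and ester metabolism was described with lists assembled after the values of the called genes were seen, so their counts are descriptions only. Among 20 steroid reductases and dehydrogenases 3 fell and none rose (median -0.62). Both 5-alpha reductases of testosterone were among them: Srd5a2 was at 13.1, 17.6 and 17.1 CPM in WT and 2.76, 3.44 and 1.86 CPM in K2A (log2 fold change -2.57, SE 0.31, adjusted p = 0.014). The values of Srd5a1 were 31.6, 37 and 35.1 CPM in WT and 9.79, 10.8 and 9.22 CPM in K2A (log2 fold change -1.8, SE 0.31, adjusted p = 0.0432). Of 12 carboxylesterases, which hydrolyse ester drugs and lipids, 3 fell. Ces1f was at 990.3, 952 and 968 CPM in WT and 121, 133 and 106 CPM in K2A (log2 fold change -3.01, SE 0.40, adjusted p = 0.0173). Ces2c (-1.98) and Ces2h (-3.14) fell as well, on the log2 scale, whereas Ces1d, at 396, 369 and 374 CPM in WT and 350.0, 452 and 395 CPM in K2A, overlapped between the groups (0.07, adjusted p = 0.93).

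Some genes of amino acid breakdown rose and others were lower in K2A. Of 25 genes of arginine, polyamine, histidine and histamine metabolism 2 rose and 1 fell (median 0.17). Arg2, the mitochondrial arginase that splits arginine into ornithine and urea (chromosome 12, 79130777 to 79156301), was at 2.41, 3.32 and 2.57 CPM in WT and 63, 54.6 and 81.5 CPM in K2A (log2 fold change 4.58, SE 0.54, adjusted p = 0.0128). The histidine decarboxylase Hdc, the source of histamine (chromosome 2, 126593667 to 126619299), was at 0.277, 0.258 and 0.222 CPM in WT and 39.5, 19 and 16.2 CPM in K2A (log2 fold change 6.61, SE 1.0, adjusted p = 0.025). Ftcd, which acts late in histidine breakdown, was at 29.2, 18.8 and 17.8 CPM in WT and 4.12, 5.69 and 3.05 CPM in K2A (log2 fold change -2.36, SE 0.34, adjusted p = 0.0205). Arg2 and Hdc were low in every WT library, and Hdc was highest in K2A 1. The kynurenine pathway, which breaks down tryptophan, was listed after values were seen, and 3 of its 10 tested enzymes rose while none fell (median -0.58). Another 6 of the 10 did not pass and were lower without overlap, as were 9.18% of all tested genes. Aadat, an aminotransferase that turns kynurenine into kynurenic acid, was at 269.7, 280.2 and 289.9 CPM in WT and 1083, 1053 and 929.7 CPM in K2A (log2 fold change 1.87, SE 0.28, adjusted p = 0.022). Kynu, the kynureninase, was at 6.46, 3.26 and 4.6 CPM in WT and 30.4, 36.3 and 26.6 CPM in K2A (log2 fold change 2.7, SE 0.36, adjusted p = 0.0166). Kyat3, a further kynurenine aminotransferase, was at 51.8, 50.4 and 48.3 CPM in WT and 179, 159 and 128 CPM in K2A (log2 fold change 1.63, SE 0.25, adjusted p = 0.0245). In all 3 the groups stood apart, with K2A 3 the lowest of the K2A libraries. Kmo, which hydroxylates kynurenine, was at 172, 156 and 166 CPM in WT and 116, 141 and 123 CPM in K2A (-0.38, adjusted p = 0.672). It was lower in K2A without overlap and did not pass.

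Genes of acyl and acetyl conjugation that passed were all lower in K2A. Of 8 Acsm medium-chain acyl-CoA synthetases and glycine conjugation genes 2 fell (median -0.56). Acsm2 (chromosome 7, 119554340 to 119600690) was at 5998, 5655 and 6526 CPM in WT and 692, 738 and 1004 CPM in K2A, 7.47-fold lower (log2 fold change -2.9, SE 0.32, adjusted p = 0.00967). Acsm3, which lies nearby (chromosome 7, 119760923 to 119787513), was at 848, 1297 and 1087 CPM in WT and 11.4, 9.72 and 3.1 CPM in K2A (log2 fold change -7.06, SE 0.85, adjusted p = 0.0131). Every K2A library lay below every WT library, and Acsm3 was lowest in K2A 3. In a list of 16 N-acetyltransferases, aminoacylases and carnosine dipeptidases, assembled after values were seen, 4 fell and none rose (median -0.67). Cndp2, the cytosolic dipeptidase, was at 3181, 4566 and 3010.0 CPM in WT and 408, 291 and 245 CPM in K2A (log2 fold change -3.51, SE 0.36, adjusted p = 0.00908). Acy3, which deacetylates mercapturic acids, was at 3234, 2702 and 2706 CPM in WT and 490.3, 472 and 669 CPM in K2A (log2 fold change -2.41, SE 0.42, adjusted p = 0.043). Nat8f2 (-2.02) and Nat8f5 (-2.66), of the N-acetyltransferase 8 family, fell on the log2 scale.

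Lipid genes gave few calls. The list of fatty acid oxidation genes and PPARA targets had 36 tested members, of which 1 rose and 1 fell (median 0.49). Fabp1, a fatty acid binding protein, was at 0.333, 0.258 and 0.272 CPM in WT and 5.11, 7.44 and 41.3 CPM in K2A (log2 fold change 5.95, SE 1.02, adjusted p = 0.0414), with K2A 3 far above the other K2A libraries. Cd36, a fatty acid uptake receptor, was at 642, 552 and 644 CPM in WT and 131, 141 and 169 CPM in K2A (log2 fold change -2.06, SE 0.34, adjusted p = 0.0338). Of 29 sterol and fatty acid synthesis genes 1 fell (median -0.79), Me1, the cytosolic malic enzyme that supplies NADPH, at 553, 494 and 575 CPM in WT and 176, 190.4 and 227 CPM in K2A (log2 fold change -1.45, SE 0.24, adjusted p = 0.0338). In both Cd36 and Me1 the groups did not overlap. Lipoprotein handling was listed after values were seen, and 3 of 14 genes fell (median 0.18), Lpl, Cd36 and Mogat1. Lpl, the lipase that frees fatty acids from lipoproteins, was at 966, 809.8 and 891 CPM in WT and 241, 199.7 and 311 CPM in K2A (log2 fold change -1.83, SE 0.29, adjusted p = 0.0291). Adipocytes also transcribe Lpl and Cd36, and adipocyte markers summed higher in every K2A library than in WT, whereas both genes were lower. Lpl is also 1 of 13 glomerular endothelium markers, and the only 1 that passed (list median -0.36). With Lpl included they summed to 2453, 1484 and 2341 CPM in WT and 853, 785 and 1447 CPM in K2A. The part of fat tissue or endothelium in the values of Lpl and Cd36 was not tested. Bbox1, the last enzyme of carnitine synthesis, was at 0.693, 0.744 and 0.568 CPM in WT and 3.35, 4.06 and 8.76 CPM in K2A (log2 fold change 3.01, SE 0.53, adjusted p = 0.0467).

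Among 15 peroxisomal lipid enzymes, also listed after values were seen, 1 rose and 2 fell (median -0.71). Hacl1, which shortens branched fatty acids by 1 carbon, was at 27.7, 29.1 and 24 CPM in WT and 128, 118 and 104 CPM in K2A (log2 fold change 2.12, SE 0.35, adjusted p = 0.0338), and the predicted gene Gm49387 overlaps it. Amacr, a racemase of branched acyl-CoAs, was at 454, 590.1 and 447 CPM in WT and 128, 124 and 85.7 CPM in K2A (log2 fold change -2.14, SE 0.28, adjusted p = 0.0165). Agps, which forms the ether bond of plasmalogens, was at 452, 456 and 464 CPM in WT and 104, 91.9 and 155 CPM in K2A (log2 fold change -1.97, SE 0.34, adjusted p = 0.0428). Sphingolipid and glycan synthesis, a list of 18 genes made in the same way, held 6 genes that fell and none that rose (median -0.68). Ugt8a, which makes galactosylceramide, was at 137, 181 and 128 CPM in WT and 18, 16.6 and 9.2 CPM in K2A (log2 fold change -3.35, SE 0.48, adjusted p = 0.0202). Degs2, which makes phytoceramide, was at 95.3, 100.4 and 88.6 CPM in WT and 17.1, 12.7 and 13.9 CPM in K2A (log2 fold change -2.7, SE 0.29, adjusted p = 0.00918). The others were B4galt5 (-1.64), which makes lactosylceramide, the chondroitin sulfate enzymes Csgalnact1 (-2.5) and Chst7 (-3.14), and the proteoglycan gene Sdc2 (-1.66), as log2 fold changes. No library of these 6 genes crossed into the range of the other group.

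**Figure D4:**
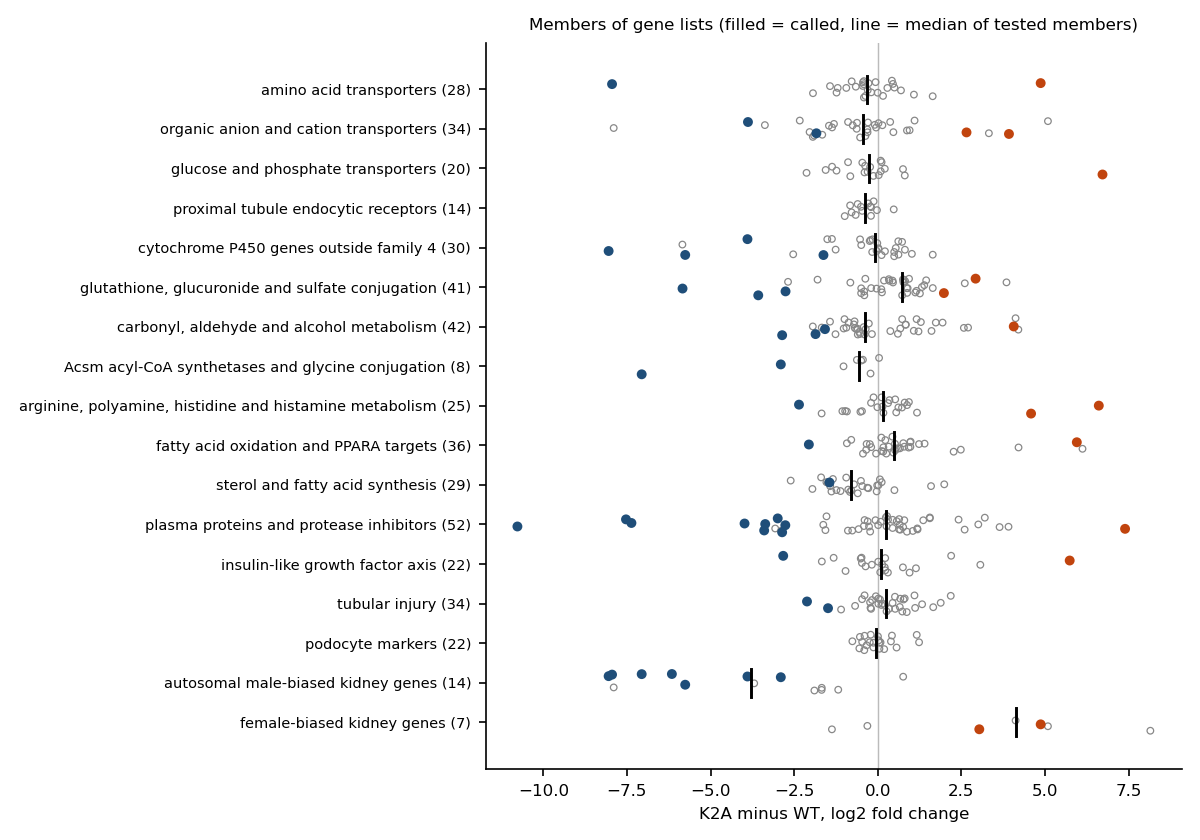
Rows are 17 gene lists with the number of tested members, points are members at their log2 fold change of K2A over WT, filled points passed the test, and bars mark each list's median. Plasma proteins hold 9 called lower, and the median of autosomal male-biased genes lies at -3.80 while podocyte markers, with none called, centre at -0.06.

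Secreted plasma proteins and protease inhibitors are usually made by the liver but also transcribed in kidney. By number, this list held the most calls of the 69: 9 of 52 fell and 1 rose, with a list median of 0.25. Its share called was 19.2%, against 0.847% of all tested genes. Several shorter lists had a higher share, such as Y-linked genes (100%) and autosomal male-biased genes (50%). Pzp, a macroglobulin that traps proteases (chromosome 6, 128483567 to 128526720), was at 138, 45.5 and 177 CPM in WT and 0.124, 0 and 0.0726 CPM in K2A (log2 fold change -10.78, SE 1.07, adjusted p = 0.00853). Apoh, which binds phospholipid surfaces (chromosome 11, 108343354 to 108414396), was at 13.7, 17.7 and 18.1 CPM in WT and 0.062, 0.178 and 0.0242 CPM in K2A (log2 fold change -7.53, SE 0.65, adjusted p = 0.00675). Serpinf2, the inhibitor of plasmin (chromosome 11, 75431732 to 75439591), was at 656, 500.2 and 586 CPM in WT and 48.2, 54.9 and 62.2 CPM in K2A, 10.5-fold lower (log2 fold change -3.4, SE 0.36, adjusted p = 0.00918). Counts of Pzp and Apoh nearly vanished in K2A, while Serpinf2 stayed well expressed. Azgp1, a lipid-mobilising glycoprotein, was at 157, 213 and 159 CPM in WT and 10.6, 16.5 and 6.27 CPM in K2A (log2 fold change -3.98, SE 0.42, adjusted p = 0.00918). Itih2, a heavy chain that joins hyaluronan, was at 8.87, 6.53 and 8.97 CPM in WT and 1.27, 0.889 and 1.19 CPM in K2A (log2 fold change -2.86, SE 0.33, adjusted p = 0.0117). Hrg, the histidine-rich glycoprotein, was at 11.9, 6.87 and 14.5 CPM in WT and 0, 0.0889 and 0.0968 CPM in K2A (log2 fold change -7.37, SE 1.14, adjusted p = 0.0261). The groups were well apart in each. The antitrypsin genes Serpina1a, Serpina1b and Serpina1d fell by 3.37, 2.99 and 2.77 on the log2 scale, and their near-identical copies can share reads. Serpina6, which encodes the corticosteroid carrier of blood and lies 70943 bases from Serpina1b, moved the other way: it had no count in WT and was at 0.589, 0.445 and 0.629 CPM in K2A, at least 20.6-fold higher (adjusted p = 0.0195). Liver and pancreas markers as a whole summed to 259.7, 312 and 274 CPM in WT and 283, 298 and 120.0 CPM in K2A, with 2 of 7 called, both antitrypsins. Outside the list, Proc, which encodes protein C, was at 252, 263 and 244 CPM in WT and 81.9, 73.7 and 80.1 CPM in K2A (log2 fold change -1.69, SE 0.23, adjusted p = 0.0195), and was named after its values were seen.

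Growth factor and hormone receptor genes gave a few large differences. Of 22 genes of the insulin-like growth factor axis 1 rose and 1 fell (median 0.10). Igf2, an imprinted fetal growth factor (chromosome 7, 142650766 to 142666816), was at 0.998, 0.744 and 1.06 CPM in WT and 29.6, 27.9 and 92.7 CPM in K2A (log2 fold change 5.74, SE 0.60, adjusted p = 0.00918), with K2A 3 the highest. Its antisense gene Igf2os and the overlapping Gm49394 were called higher too, and without a stated strand setting their reads cannot be told apart from those of Igf2. Igf2bp1, an RNA-binding protein of fetal tissue, was at 7.54, 5.38 and 8.13 CPM in WT and 1.18, 0.711 and 1.06 CPM in K2A (log2 fold change -2.83, SE 0.41, adjusted p = 0.0205). Among 31 hormone and steroid receptors 2 rose (median -0.07). Prlr, the prolactin receptor (chromosome 15, 10177238 to 10349180), was at 14.7, 6.53 and 18.7 CPM in WT and 82.7, 90.5 and 154 CPM in K2A (log2 fold change 3.03, SE 0.54, adjusted p = 0.0495). Galr2, a galanin receptor, was at 0.0832, 0.258 and 0.198 CPM in WT and 3.97, 5.72 and 1.72 CPM in K2A (log2 fold change 4.38, SE 0.61, adjusted p = 0.0195). No WT library reached the lowest K2A library in either. The succinate receptor gene Sucnr1 and the ectonucleotidase gene Nt5e, named after their values were seen, fell by 1.71 and 1.62 on the log2 scale. None of 13 renin-angiotensin and kinin genes passed, and the nearest was Mas1, a receptor of an angiotensin fragment, at 2.91, 1.86 and 2.97 CPM in WT and 0.465, 0.622 and 0.121 CPM in K2A (log2 fold change -2.68, SE 0.59, adjusted p = 0.0971).

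Genes known for a sex difference in mouse kidney were listed beside the Y-linked genes and Xist. Of 14 autosomal male-biased genes 7 fell and none rose (median -3.8), and all 7 are described above: Cyp2j13, Slc7a13, Acsm3, Cyp4a12a, Cyp7b1, Cyp2e1 and Acsm2. Another 5 did not pass and were lower without overlap, 1 overlapped, and Serpina1f, singled out after its values were seen, was higher without overlap, at 154, 145 and 134 CPM in WT and 249, 253 and 231 CPM in K2A (0.76, adjusted p = 0.282). The list summed to 39498, 56215 and 40338 CPM in WT and 16905, 16557 and 9487 CPM in K2A. The female-biased list had 7 tested genes, of which Slc7a12 and Prlr, 2 in all, rose (median 4.12). Their summed CPM was 936, 928 and 824 in WT and 1267, 1046 and 5710.4 in K2A, highest in K2A 3. Cyp4a14 alone made up most of the K2A 3 sum, and without it (a setting added after its values were seen) the sums were 929, 925 and 816 CPM in WT and 1115, 885 and 929 CPM in K2A, which overlapped. Cyp2a4 and Slc22a7 went the other way without overlap and did not pass (-1.37 and -0.31, adjusted p = 0.054 and 0.80). Of the 6 tested genes on chromosome Y 4 fell, all of them on the Y-linked list, and the others were predicted genes. Among those that fell was Kdm5d, a histone demethylase gene, at 12.2, 11 and 12.2 CPM in WT and 0.031, 0 and 0 CPM in K2A (log2 fold change -9.85, SE 0.75, adjusted p = 0.00908). Xist missed the threshold (adjusted p = 0.0547) with K2A 3 far above the other K2A libraries, and against the limit of 3 counts over the WT group it was at least 4859.7-fold higher, or at least 1142-fold without K2A 3. Of 8 X-linked genes that escape inactivation, Xist included, none passed, and Eif2s3x, the X-linked partner of Eif2s3y, was at 18.7, 21.4 and 18.2 CPM in WT and 34.1, 36.8 and 26.5 CPM in K2A (log2 fold change 0.74, SE 0.27, adjusted p = 0.342). Sex-biased lists are short, so a gene outside them may also differ between the sexes, and how much of the other differences moves with sex was not tested.

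**Figure D5:**
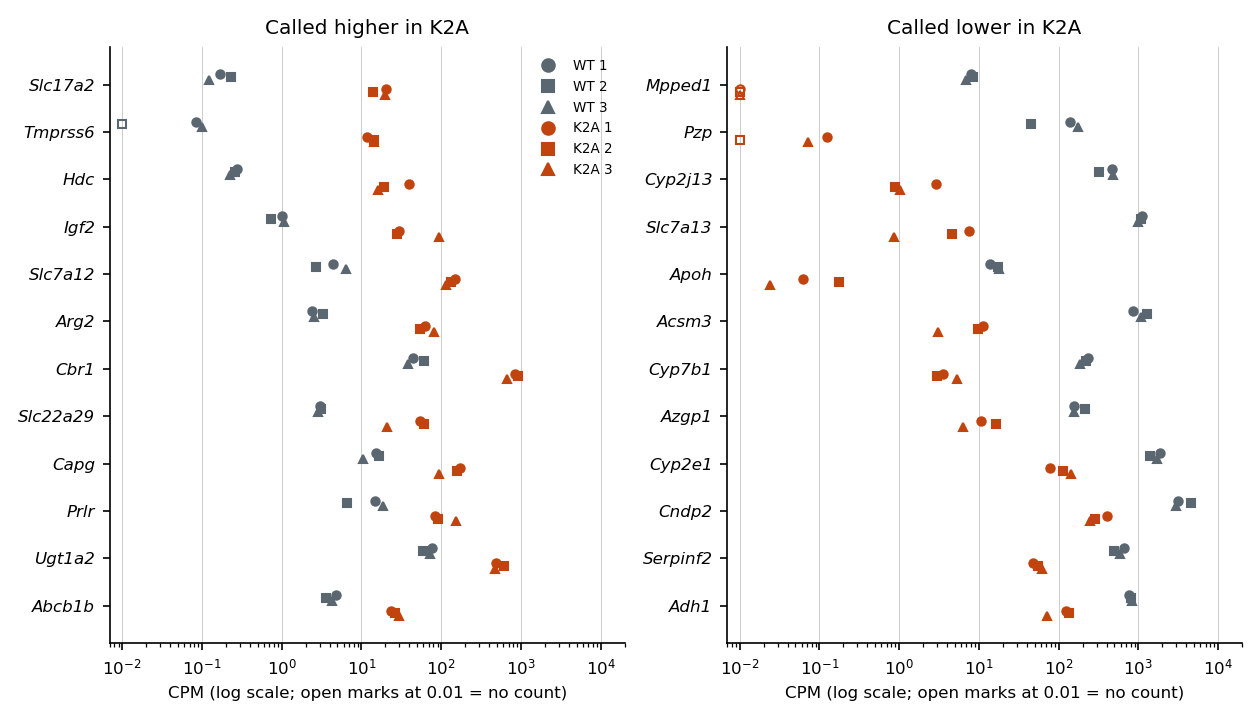
CPM on a log axis for 12 genes called higher (left) and 12 called lower in K2A (right), 1 mark per library, grey for WT and orange for K2A, with open marks at 0.01 where a library had no count. The groups do not overlap in any of these genes, and the spread within a group is widest where counts are low, as for Pzp and Apoh in K2A.

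Inflammation genes, for which extracellular Ybx1 is studied, mostly did not pass. None of 21 Toll-like receptor pathway genes was called (median 0.10). Tlr4, the receptor of endotoxin, was at 1.83, 2.66 and 2.37 CPM in WT and 4.8, 4.24 and 2.47 CPM in K2A (log2 fold change 0.74, SE 0.34, adjusted p = 0.498). Its co-receptor gene Cd14 was at 5.93, 4.95 and 4.2 CPM in WT and 12.7, 11.4 and 7.48 CPM in K2A (log2 fold change 1.06, SE 0.33, adjusted p = 0.239), with no overlap between groups. None of 22 inflammasome and interleukin 1 family genes passed (median 0.53). The sensor gene Nlrp3 was at 0.444, 0.401 and 0.568 CPM in WT and 0.434, 0.237 and 0.387 CPM in K2A (-0.41, adjusted p = 0.831). Casp1, which cleaves interleukin 1 precursors, was at 0.638, 0.945 and 0.939 CPM in WT and 1.83, 2.28 and 0.726 CPM in K2A (0.93, adjusted p = 0.59). Il1b stood at 0.388, 1.2 and 0.618 CPM in WT and 1.8, 2.22 and 0.436 CPM in K2A (1.01, adjusted p = 0.657). Casp1 and Il1b were higher in K2A 1 and K2A 2 than in K2A 3, which lay within the WT range in both. Adipocyte and urothelium markers and ribosomal protein genes were also higher in K2A 1 and K2A 2 than in K2A 3, and their part in these values was not tested. Il18 (-0.52, adjusted p = 0.783) and the macrophage gene Adgre1 (-0.20, adjusted p = 0.869) did not pass. With the length slope in the fit Il18 passed at -0.97 (adjusted p = 0.0289). That fit called 2 of the 22 inflammasome and interleukin 1 family genes higher and 2 lower, and 1348 higher and 1516 lower among all genes.

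Of 38 interferon response genes 1 rose (median 0.33). It was Gbp3, a guanylate-binding GTPase, at 4.8, 7.16 and 5.19 CPM in WT and 58.2, 46.6 and 28.4 CPM in K2A (log2 fold change 2.96, SE 0.44, adjusted p = 0.0233). None of 28 complement, 32 chemokine or 11 MHC class II genes passed, with medians of -0.20, 0.73 and 0.28. The chemokine receptor gene Ccr1, at 0.388, 0.63 and 0.173 CPM in WT and 5.98, 3.41 and 0.629 CPM in K2A, spread widely across the K2A libraries (log2 fold change 3.07, SE 0.97, adjusted p = 0.255). Complement factor B, Cfb, was at 360.5, 278 and 348 CPM in WT and 138, 162 and 163 CPM in K2A (log2 fold change -1.09, SE 0.25, adjusted p = 0.108).

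Of 34 tubular injury genes tested 2 fell and none rose (median 0.24). Il34, a cytokine that acts on macrophages through the CSF1 receptor (chromosome 8, 110741829 to 110805924), was at 26.1, 39.6 and 32.8 CPM in WT and 8.68, 6.67 and 7.33 CPM in K2A, 4.34-fold lower (log2 fold change -2.12, SE 0.28, adjusted p = 0.0173). Itgb6, an integrin chain that activates TGF-beta, was at 149.7, 112 and 131 CPM in WT and 51.5, 46.2 and 42.1 CPM in K2A (log2 fold change -1.49, SE 0.25, adjusted p = 0.0372). The K2A values of both genes lay close together and below all WT values. Spp1, which encodes osteopontin, was at 794, 735 and 692 CPM in WT and 1397, 1453 and 1029 CPM in K2A (log2 fold change 0.80, SE 0.26, adjusted p = 0.265). It passed with the length slope in the edgeR fit (0.70, adjusted p = 0.00631) and in DESeq2 (adjusted p = 0.0484). The slope fit called 4 of the 34 injury genes higher and 3 lower, and 1348 higher and 1516 lower among all genes. Havcr1, which encodes KIM-1, was at 1.47, 2.78 and 1.63 CPM in WT and 4.25, 1.84 and 0.266 CPM in K2A (0.11, adjusted p = 0.98). Lcn2, which encodes NGAL, was at 2.33, 2.63 and 1.58 CPM in WT and 5.58, 3.2 and 3.15 CPM in K2A (0.86, adjusted p = 0.484). Spp1 and Lcn2 did not overlap between the groups and Havcr1 did. None of 43 extracellular matrix and fibrosis genes passed (median -0.41). Col1a1, the main fibrillar collagen chain, was at 26.3, 6.79 and 30.1 CPM in WT and 6.14, 3.76 and 4.82 CPM in K2A (log2 fold change -2.1, SE 0.81, adjusted p = 0.372), and its WT 2 value was close to the K2A range.

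Further lists gave no call. They covered salt transport of the thick limb and distal tubule (25 genes, median -0.24), water and sodium handling of the collecting duct (17, -0.26), acid-base genes of intercalated cells (17, -0.26) and endocytic receptors of the proximal tubule (14, -0.38). Amn, part of the cubilin receptor, was at 275, 259 and 236 CPM in WT and 168, 179 and 160.4 CPM in K2A (log2 fold change -0.60, SE 0.26, adjusted p = 0.465). Sgk1, a kinase that aldosterone induces, was at 67.2, 67 and 94.2 CPM in WT and 98.6, 317 and 169.7 CPM in K2A (log2 fold change 1.36, SE 0.42, adjusted p = 0.241). Genes of the unfolded protein and integrated stress response (27, -0.27), heat shock proteins (23, -0.34), hypoxia genes (24, -0.02), cell cycle genes (30, -0.22), and klotho, vitamin D and calcium genes (16, -0.52) did not pass either. Pdia3, a chaperone of the endoplasmic reticulum, was at 627, 607 and 669 CPM in WT and 319.9, 348 and 328 CPM in K2A (log2 fold change -0.93, SE 0.23, adjusted p = 0.137). Kl, which encodes klotho, was at 1129, 403 and 1157 CPM in WT and 137, 125 and 385 CPM in K2A (log2 fold change -2.06, SE 0.83, adjusted p = 0.412), with its lowest WT value in WT 2. Of 16 gluconeogenesis and ammoniagenesis genes none passed (median 0.15). Of the 62 lists chosen with earlier results of these data known, 25 held a call and 37 did not, and 54 of the 153 called genes were in them. Each of the 7 lists assembled after values were seen also held a call, and 77 called genes were in any of the 69.

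Genes outside the lists had large differences too. Tmprss6, a membrane protease that restrains hepcidin (chromosome 15, 78439667 to 78468634), was at 0.0832, 0 and 0.0988 CPM in WT and 11.9, 14.5 and 14.4 CPM in K2A (log2 fold change 7.7, SE 0.75, adjusted p = 0.00853). Nup62cl, which lies on chromosome X and resembles a nucleoporin, was at 0.0832, 0.0573 and 0.0741 CPM in WT and 8.34, 5.78 and 4.21 CPM in K2A (log2 fold change 6.35, SE 0.89, adjusted p = 0.0195). Capg, which caps actin filaments, was at 15.3, 16.5 and 10.6 CPM in WT and 171, 156 and 93.3 CPM in K2A (log2 fold change 3.31, SE 0.47, adjusted p = 0.0195). Each was many times higher in every K2A library. Cebpd, a transcription factor of acute-phase and fat cell programmes named after its values were seen, was at 7.87, 9.53 and 5.96 CPM in WT and 51, 33.8 and 48.3 CPM in K2A (log2 fold change 2.51, SE 0.30, adjusted p = 0.0131). The other genes that the naming rule took as higher were Kcnip2, Ccdc170, Radx and Bbox1, with log2 fold changes of 3.59, 3.16, 3.05 and 3.01. Mpped1, a metallophosphoesterase domain gene (chromosome 15, 83779467 to 83858494), was at 8.04, 8.56 and 6.82 CPM in WT and had no count in K2A, at least 279-fold lower (adjusted p = 0.0117). Timd2, of the T-cell immunoglobulin and mucin family, was at 102, 132 and 116 CPM in WT and 7.44, 7.2 and 1.23 CPM in K2A (log2 fold change -4.47, SE 0.68, adjusted p = 0.0251). Fcamr, the Fc receptor of IgA and IgM, was at 29.8, 16 and 27.6 CPM in WT and 1.27, 1.48 and 0.799 CPM in K2A (log2 fold change -4.37, SE 0.47, adjusted p = 0.00918). WT and K2A values did not overlap in any of them. The remaining 2 genes taken as lower were the protease gene Tmprss9 and the collagen gene Col6a6, at -4.94 and -7.17.

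Among core clock genes 1 of 19 fell (median 0.29): Npas2, a partner of BMAL1, at 20, 10.1 and 23.4 CPM in WT and 1.64, 1.84 and 1.4 CPM in K2A (log2 fold change -3.45, SE 0.50, adjusted p = 0.0202). Of 9 genes that vary between C57BL/6 substrains 2 fell, the nucleotidase genes Entpd4 and Entpd4b, near-identical copies on chromosome 14. Entpd4 was at 10.6, 13.8 and 11.7 CPM in WT and 1.92, 3.05 and 2.08 CPM in K2A (log2 fold change -2.35, SE 0.32, adjusted p = 0.0176), and Entpd4b had almost the same values (-2.39). The labels give 1 strain background for all groups and a supplier for WT only, so genotype and a possible difference in breeding stock cannot be told apart.

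Some called genes lay next to each other. Of the 148 with a position, 25 fell into 18 pairs within 100000 bases, and 17 pairs moved in the same direction. The latter include pairs among the Y-linked genes Kdm5d, Eif2s3y, Uty and Ddx3y, which separate the groups by sex, and near-identical copies such as the Serpina1 genes. How often tested genes lie this close or move together was not counted, so the numbers of pairs are descriptions only. In 6 pairs the gene bodies overlap, so that reads can be shared, as for Igf2 and Igf2os. Without overlap, Cbr1 and Setd4 rose together, Treh, which encodes trehalase, and BC049987 (994 bases apart) fell together, and so did Nat8f2 and Nat8f5 and the Ugt2 genes named above. The pair that moved in opposite directions was Serpina1b and Serpina6.

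K2A was also compared with dPod, in which podocytes lack Ybx1 altogether. None of 18067 genes passed (0% called; 364 with an unadjusted p below 0.05), and DESeq2 called 14. The median log2 fold change was -0.01. The 5 genes with the smallest p were named by rule. Wdfy1, which is on the list of genes that vary between substrains, was at 28.9, 50.4 and 34.8 CPM in K2A and 7.56, 8.39 and 8.26 CPM in dPod (2.24, adjusted p = 0.574). Its WT values were 71.4, 66.9 and 72.2 CPM. Gm16867, which overlaps Entpd4, was at 0.062, 0 and 0.0484 CPM in K2A, 3.0, 1.17 and 1.01 CPM in dPod and 1.44, 1.49 and 1.11 CPM in WT (K2A against dPod -5.41, adjusted p = 0.768). For Lamb3, a laminin chain, Wnt7b, a Wnt ligand of the collecting duct, and Gm45250 the fold changes of K2A over dPod were 2.01, 2.27 and 2.35, each with adjusted p = 1. Against the same WT libraries, dPod had 178 called genes (0.985%). Because the controls are shared, values of both genotypes are given side by side. Y-linked genes summed to 94.4, 119 and 102 CPM in WT, 0.682, 0.237 and 0 CPM in K2A and 0, 0 and 0 CPM in dPod. In neither contrast with WT can genotype and sex be told apart. Cyp7b1 was at -5.76 in K2A and -6.71 in dPod, Cbr1 at 4.06 and 4.13, Abcb1b at 2.65 and 2.77, Arg2 at 4.58 and 4.01, and Il34 at -2.12 and -2.39. Itgb6 was at -1.49 in K2A and -0.68 in dPod (adjusted p = 0.308 there), and its difference between the genotypes did not pass (adjusted p = 1).

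A fit with a covariate for how counts depended on transcript length called 1348 genes higher and 1516 lower in K2A, with all 153 among them. The genes with the smallest p that this fit added, and that the fit without it did not call, were named by rule. Those higher were Gc, which encodes the vitamin D binding protein, at 27.9, 17.7 and 22.7 CPM in WT and 93.7, 108 and 211 CPM in K2A (2.6 without and 2.91 with the slope, adjusted p = 0.0749 and 1.30e-05), the elongase gene Elovl6 (2.25 with the slope), the retinol dehydrogenase gene Rdh16f2 (2.4), the thyroxine deiodinase gene Dio1 (2.15) and Xist. Those lower were the lipase gene Lipo3 (-3.21), C1qtnf3 (-1.99), the isoprenoid enzyme gene Idi1 (-2.99), the transporter gene Slc22a28 (-4.44) and the cytochrome b5 gene Cyb5a (-1.56). Cyb5a moved most between the fits: it was at 1027, 1759.8 and 1019 CPM in WT and 808, 877 and 300.4 CPM in K2A, overlapping between groups, with -0.94 without the slope (adjusted p = 0.675).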

How the data were processed

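Polyadenylated RNA of renal tissue was sequenced in 3 WT, 3 K2A and 3 dPod libraries. Per the labels' protocols, RNA was extracted on RNeasy columns and the library kit was ScriptSeq v2, a strand-marking kit. The authors deposited raw counts by gene symbol, in a pair of tables with common WT columns. The submitters' processing notes name STAR 2.7.3a, Trim Galore 0.6.3, featureCounts 2.0.1, DESeq2 1.30.0, FastQC 0.11.9, MultiQC 1.10.1 and build mm10, with no role or order. The strand setting of counting and the handling of reads with several matches are not given in the sources used here, so genes with close copies, antisense genes and overlapping genes have uncertain counts.

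The tables were joined on 52160 symbols, leaving out 3 with differing WT counts. Counts of all 9 libraries entered a single edgeR 4.0.16 quasi-likelihood fit (R 4.3.3, limma 3.58.1) with a group term, filterByExpr, TMM factors and Benjamini-Hochberg adjustment at 0.05 over 18067 genes. Values are CPM per library after TMM. Groups with no count were set to 3 counts over the group, for counting error only. Exact tests of 3 against 3 cannot give p below 0.1 and were not used. Lengths and positions come from GENCODE on mm10 (17599 symbols, 97.4%), promoters from RefSeq. Simulated counts served only to check that the fits ran as intended, as they spread less between libraries than these data. Those for the fit without a length slope also held no length effect.

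The members, gene lists and naming rule were chosen with earlier results of these data known, and 7 lists and the genes marked as such after their values were seen here. The rule always named 16 genes, took the 20 higher and 20 lower called genes of largest fold change at mean log2 CPM 1 or above, up to 5 called members of each list (or the 2 of smallest p), 5 genes each way added by the length slope, and 5 for K2A against dPod. Some genes it took are not reported here. Alternatives were other scaling factors, DESeq2 1.42.0, filters, only 6 libraries, a replicate block, length slope or class, and leaving out libraries.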

Additional observations from a re-analysis of the deposited data

Results flagged for a closer look

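Lamb3, the laminin beta 3 chain of epithelial basement membranes (chromosome 1, 193207699 to 193343878), was picked out because K2A and dPod lay on opposite sides of WT in every library. It was at 2.47, 1.89 and 2.13 CPM in WT and 3.66, 5.13 and 3.27 CPM in K2A, and at 1.12, 1.2 and 0.685 CPM in dPod. All K2A libraries were above and all dPod libraries below the WT range. Against WT the log2 fold change was 0.89 in K2A (adjusted p = 0.353) and -1.11 in dPod (adjusted p = 0.235). The difference between the genotypes was 2.01 and did not pass the edgeR test (adjusted p = 1).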

How the results depend on the processing

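The number of calls depended on the fit and on single libraries, and the cause was not tested. Against 58 higher and 95 lower genes, DESeq2 called 384 and 370, the length slope as a covariate 1348 and 1516, the length class as a term 340 and 399, a fit within the long class 170 and 161, and a fit within the short class 104 and 203. Without K2A 1 and K2A 2 together, with 1 K2A library left, 4 were called higher and 3 lower, and leaving out each library in turn gave 0 to 90 higher and 3 to 83 lower. Other scaling factors, filters and the fit of only 6 libraries stayed within 1.5 times of both counts. Upper quartile factors moved the median change over all tested genes (log2) from 0.09 to 0.24. For K2A against dPod, none was called by edgeR, 14 by DESeq2, 33 with the length slope and 0 to 2 when a library was left out. Replicate numbers are shared by the groups, and deviations of same-numbered WT and K2A libraries correlated at -0.54, 0.76 and 0.71. Differently numbered libraries of the same length class correlated at 0.75 (WT 2 with K2A 1) and 0.59 (WT 1 with K2A 3). Differently numbered libraries of different classes correlated at -0.56 to -0.80. The sign thus followed the length class and not the number. The classes were drawn from the same values, so this describes the libraries and does not test pairing by number. With the number as a replicate block, 103 genes were called higher and 129 lower. Among 161 named genes and these alternatives, the only called value of opposite sign was that of Alas2, an erythroid gene, which was at 0.22 and became -1.43 (adjusted p = 0.0495) within the short class. DESeq2 kept the side of the threshold for 131 of 160 named genes and called 29 more, and the length slope did so for 110 of 161 and called 51 more. Genes with few counts, such as Serpina6 and Ugt2a3, are limited by depth.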

Other observations

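K2A 3 differed from K2A 1 and K2A 2 in some genes of fasting and of the daily clock. Of 19 core clock genes K2A 3 was the highest of the 6 libraries in 14 and the lowest in 4, and of 16 gluconeogenesis and ammoniagenesis genes in 11 and 2, against 25.7% and 28.9% of all tested genes. The genes given here did not pass the edgeR test and were picked after their values were seen. The fatty acid hydroxylase gene Cyp4a14, also on the female-biased list, was at 7.15, 3.32 and 7.46 CPM in WT and 152, 161 and 4782 CPM in K2A (adjusted p = 0.074). Pck1, a gluconeogenic enzyme, was at 1095, 614 and 1699 CPM in WT and 655, 766 and 11520.0 CPM in K2A (adjusted p = 0.668). In both genes K2A 3 was the highest of the 6 libraries by a wide margin. Among clock genes, Per1 was at 24, 10 and 25.1 CPM in WT and 4.8, 12.6 and 119.7 CPM in K2A (adjusted p = 0.781), and Dbp at 15.6, 15.6 and 11.9 CPM in WT and 25.3, 21.5 and 183 CPM in K2A (adjusted p = 0.506). Arntl, which encodes BMAL1 and peaks at the opposite time of day, was at 21.4, 14 and 26.7 CPM in WT and 8.77, 7.35 and 2.49 CPM in K2A (adjusted p = 0.211), lowest in K2A 3. Npas2, the clock gene that passed, was close together in the K2A libraries. The labels give no time of sampling or feeding state.

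The fat cell genes Cidec and Cox8b and the urothelial gene Psca, also picked after their values were seen, were higher in all K2A libraries than in WT, by very different amounts, and did not pass. Cidec, a lipid droplet protein, was at 0.25, 0.115 and 0.0988 CPM in WT and 17.8, 53.4 and 2.49 CPM in K2A (7.29, adjusted p = 0.090). Cox8b, a subunit of brown fat mitochondria, was at 0.0554, 0.0286 and 0.0247 CPM in WT and 16.7, 57 and 3.97 CPM in K2A (9.36, adjusted p = 0.0726). The urothelial gene Psca was at 2.27, 1.32 and 1.06 CPM in WT and 37.3, 50.7 and 3.65 CPM in K2A (4.3, adjusted p = 0.269). K2A 2 was the highest library in all 3 genes, and K2A 3 the lowest of the K2A libraries.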
